A study of Mus musculus with 30 samples.

Results

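Laminins and the other structural genes of the basement membrane were followed in cultured cells in which the long noncoding RNA gene CASC15 had been knocked down or overexpressed. The 10 genes were Lama2, Lama4 and Lama5 (laminin alpha chains), Lamb1 and Lamb2 (beta chains), Lamc1 (a gamma chain), Nid1 and Nid2 (nidogens), Hspg2 (perlecan) and Hmcn1 (hemicentin 1), out of 78334 gene identifiers in the deposited table. They were chosen by name as a basement membrane group. Hmcn1 was added because it fell in CASC15 overexpression, so its values in that comparison are given as a description with no test. All 10 were found and all 10 passed the filter on low counts, among 15350 genes tested in sequencing run 2 and 15103 in run 3.

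RNA was sequenced as paired reads of 75 bp in 30 libraries of cells labelled as aortic smooth muscle cells of mouse, although the growth protocol speaks of cells of mouse and rat. All cells, controls included, had been kept in serum-free medium for 48 h and transfected for at least 24 h. Sequencing run 2 held 2 libraries with a control GapmeR, an antisense oligonucleotide that directs RNase H to its target RNA, 2 libraries labelled as knockdown of total CASC15, 3 with a control plasmid and 3 with a plasmid overexpressing total CASC15, all without treatment. Run 3 held 5 groups of 4 libraries: the antisense control without treatment, with 10 ng/ml of angiotensin II or with 10 to 30 ng/ml of PDGF-BB, and knockdown of long CASC15 without treatment or with angiotensin II at 10 ng/ml. Both treatments lasted 24 h. Of the 13 libraries with an agent against or encoding CASC15, the titles and treatment labels of 10 print another name, from CASC16 to CASC22, among them all 4 of long knockdown in untreated cells. Groups were therefore taken from the library codes in the descriptions. These 10 share the part of the code that names the agent with a library whose title prints CASC15. For untreated long knockdown that is only 1 library, and it belongs to the group with angiotensin II. The labels also give each library a batch, P16 to P19, that runs with its replicate number. They do not say that replicates were separate cultures, so p-values measure only the spread between these libraries, which may be technical.

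A basement membrane is a thin sheet of matrix that surrounds each vascular smooth muscle cell and underlies endothelium. Its laminins are trimers of an alpha, a beta and a gamma chain that polymerise on the cell surface, where integrins and dystroglycan bind the alpha chain. A second network of type IV collagen is joined to the laminin sheet by nidogens and by perlecan, a heparan sulfate proteoglycan. Hemicentins are very large extracellular proteins of the immunoglobulin superfamily found where tissues and basement membranes meet. Laminins with the alpha 4 or alpha 5 chain are the usual forms of vessel walls, and the alpha 2 chain is best known from muscle and nerve.

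Expected counts per library were 18007199 to 21881959 (run 2) or 15771490 to 30362047 (run 3). Together the 10 genes took 0.161% to 0.275% of the counts of a library. The target, read from the gene 2610307P16Rik, fell with long knockdown from a mean of 5.52 to 2.87 CPM (depth-scaled counts, with TMM factors of the run), and rose with overexpression from 6.42 to 716 CPM. These counts cover the whole gene and do not separate its long isoform. It did not fall in the libraries labelled total knockdown, where the mean was 9.01 CPM against 7.02 CPM in their controls, so directions in that comparison refer to the label only. Of 12 smooth muscle markers, Cnn1 had 3 counts or fewer in every library of 7 of the 9 groups, and Myh11 and Itga8 likewise in the untreated and the PDGF-BB-treated controls of run 3. The summed smooth muscle list was 672 to 1230 CPM per library. In run 3 it was 909 to 1140 CPM in untreated controls, 826 to 994 CPM with long knockdown and 707 to 823 CPM with PDGF-BB. Single markers moved more than that sum. With long knockdown in untreated cells 5 of 11 tested were called, beside 25.0% of all genes tested. Myh11, Itga8, Synpo2 and Smtn were higher (log2FC, the fitted log2 fold change, 3.73, 3.69, 2.29 and 0.60) and Myocd lower (-1.33). Of 8 endothelial markers, Cdh5, Tie1 and Cldn5 had 3 counts or fewer in every library, as did Ptprc, Adgre1 and C1qa of 8 macrophage markers, but other markers of both lists differed between groups. The endothelial list summed to 8.07 and 13.1 CPM in the libraries labelled total knockdown against 2.81 and 4.05 CPM in their controls, with Esam called higher (5.06, adjusted p = 0.0230 in edgeR's test). In run 3 it summed to 1.39 to 2.65 CPM in untreated controls, 2.07 to 4.11 CPM with long knockdown and 0.407 to 1.11 CPM with PDGF-BB. Vwf was called higher with long knockdown, from 0.144 to 0.688 CPM in untreated cells (2.10, adjusted p = 0.0165) and by 3.42 under angiotensin II (adjusted p = 0.00159), and Pecam1 lower with PDGF-BB, from 1.19 to 0.372 CPM (-1.65, adjusted p = 0.0397). The summed fibroblast list of 8 genes was 1890 to 2080 CPM in untreated controls of run 3, 1860 to 2330 CPM with long knockdown and 685 to 997 CPM with PDGF-BB. With long knockdown in untreated cells 4 of 6 tested there were called, beside the same 25.0% of all genes. Lum and Pdgfra were higher (2.06 and 1.66) and Pi16 and Col14a1 lower (-1.83 and -1.19). In run 2 that list summed to 830 to 869 CPM in the libraries labelled total knockdown against 1010 to 1100 CPM in their controls. The macrophage list summed to 27.7 and 32.5 CPM in the libraries labelled total knockdown against 8.69 and 10.4 CPM in their controls, and to 18.1 to 23.5 CPM with overexpression against 11.4 to 12.8 CPM. Of 4 tested, Cd68 and Csf1r were called higher in the first comparison (beside 2.07% of all genes), with log2FCs of the 4 from 0.3 to 5.19. In the second only Cd14 was called, higher (beside 1.65% of all genes), and the log2FCs of the 4 went both ways, from -1.39 to 3.01. The part of these marker shifts in the results was not tested. In bulk RNA, fewer cells of a type and less RNA per cell cannot be told apart.

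Libraries of batch P19 often stood apart from the others of their group. Among untreated long knockdown libraries, the P19 library had the lowest Hmcn1, Lama4 and Lamb2, and in the plasmid controls it had the lowest Hmcn1 and Lamb1 and the highest Nid1 and Nid2. Values without P19 are given beside the results below where they change a call, and for the counts over gene lists in run 3.

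The most abundant laminin chain transcripts were Lama5, Lamb2, Lamb1 and Lamc1, and perlecan was of the same order. Levels of different genes were compared as CPM per kb of exon length from the GENCODE M21 annotation. In the 4 untreated antisense controls of run 3 they were 58.9 ± 4.19 for Lamb2 (SD, n = 4), 41.2 ± 2.21 for Hspg2, 32.5 ± 3.27 for Lama5, 31.2 ± 2.98 for Lamb1, 27.9 ± 1.36 for Lamc1 and 12.3 ± 1.02 for Nid1. Lama4 at 1.19 ± 0.131, Hmcn1 at 0.876 ± 0.169, Nid2 at 0.275 ± 0.170 and Lama2 at 0.0308 ± 0.0137 CPM per kb were far lower. The ranges of Lama5 and Lamb1 overlapped, as did those of Lamb1 and Lamc1, although Lama5 was above Lamb1, and Lamb1 above Lamc1, in each of the 4 libraries. With the length of the longest transcript instead, Lamb1 was above Lama5 in all 4. Its range of 46.2 to 57.7 CPM per kb then lay above that of Hspg2 (39.6 to 44.6) and overlapped that of Lamb2 (57 to 67.2). Lama2 had 3 to 29 counts per library in run 3, and its values are limited by counting.

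Lama5 held 91.3% to 96.3% of the alpha chain transcripts in the group means, counted per kb over Lama1 to Lama5. Lama4 held nearly all of the rest, and its share differed between groups. It was 3.52% ± 0.234 in untreated controls of run 3 and 3.86% ± 0.468 with angiotensin II. It was 6.07% ± 0.730 with PDGF-BB and 8.06% ± 1.87 with long knockdown, where the library of batch P19 was lowest at 5.52%, and neither group overlapped the untreated controls, which reached 3.83%. In run 2 the share was 5.62% ± 0.666 in plasmid controls and 8.45% ± 1.76 with overexpression (SD, n = 3 each).

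Among beta chains the share of Lamb2 lay above the controls in one condition and below them in another. Lamb2 held 63.3% ± 0.936 in untreated controls, 70.9% ± 2.50 with long knockdown and 51.2% ± 1.99 with PDGF-BB (SD, n = 4 each), while Lamb1 held 33.5%, 27.5% and 46.0%. The ranges did not overlap: the Lamb2 share was 61.9% to 64.0% in the controls, 67.2% to 72.3% with long knockdown and 48.8% to 53.4% with PDGF-BB. These shares depend on the lengths used, and which beta chain leads with PDGF-BB changes with them. With the longest annotated transcript of each gene, the Lamb2 share was 52.6% in controls, 60.9% with long knockdown and 40.1% with PDGF-BB, and the Lama4 share was 6.79%, 14.8% and 11.4%, in the same order of groups, while Lamb1 held 57.2% with PDGF-BB.

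**Figure D1:**
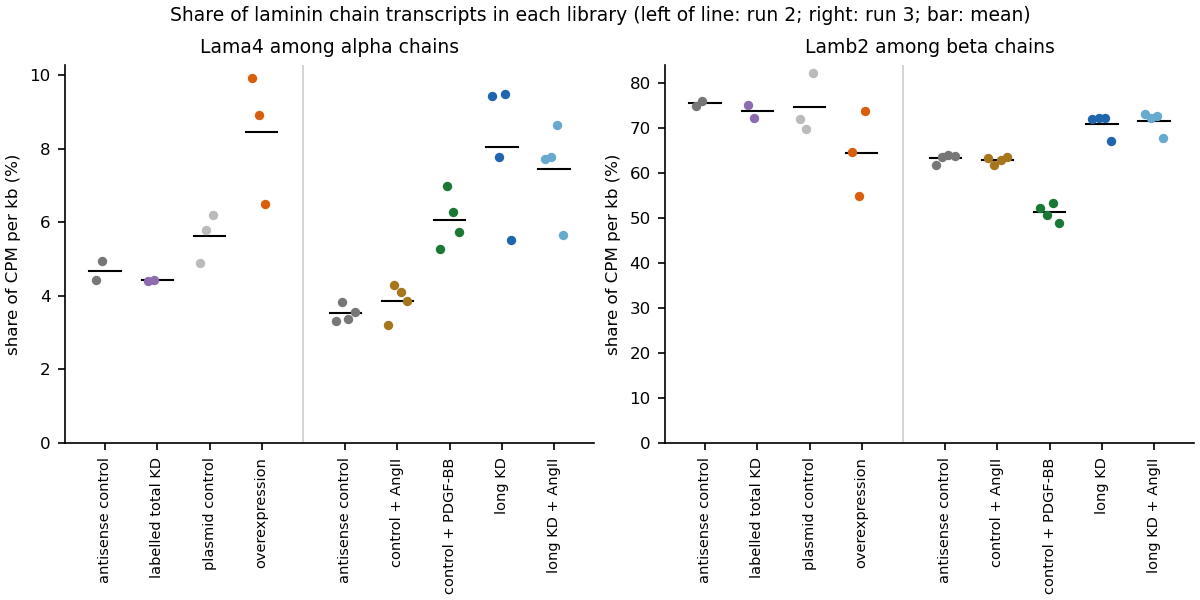
Share of Lama4 among alpha chain and of Lamb2 among beta chain transcripts (%, from CPM per kb of exon length) in each of the 30 libraries, by group, with run 2 left and run 3 right of the grey line; KD is knockdown and AngII angiotensin II, and black bars are group means. Lamb2 shares of 67.2% to 72.3% with long knockdown lie above, and those of 48.8% to 53.4% with PDGF-BB below, the 61.9% to 64.0% of untreated controls.

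Knockdown of long CASC15 in untreated cells was compared with the antisense control to ask which basement membrane genes change when the target is lowered. Lama4 and Hmcn1 rose 2.03-fold and 3.24-fold, Lamb2 rose and Lamc1 fell by smaller amounts. These 4 were the members past the threshold, 3 higher and 1 lower of 10 (40.0% of the members, where 25.0% of all genes tested were called). The median fitted log2 fold change was 0.26 over the 10 members and 0.02 over all genes tested.

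Lama4, a chain of laminins of vessels and muscle, was at 14.9, 16.2, 13.6 and 12.6 CPM in controls of batches P16 to P19. In the knockdown libraries of the same batches it was at 31.9, 30.2, 32.7 and 21.9 CPM. All 4 knockdown libraries lay above all controls, with P19 lowest, and the fitted log2 fold change (log2FC) was 1.02 (SE 0.148, adjusted p = 3.89e-05 in edgeR's quasi-likelihood test, as for every adjusted p here unless DESeq2 is named). Lama5, the most widespread alpha chain of adult tissues, was at 371 ± 37.2 CPM in controls and 317 ± 32.5 CPM with knockdown, and the groups overlapped (log2FC -0.22, SE 0.106, adjusted p = 0.130). Without batch P19 its log2FC was -0.35 with an adjusted p of 0.00696. Lama2 had means of 0.503 and 0.905 CPM and was not past the threshold (adjusted p = 0.198).

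Of the beta chains, Lamb2 was at 366, 378, 367 and 321 CPM in controls and at 449, 495, 477 and 383 CPM with knockdown. Every knockdown library was above every control, by little in P19, and the log2FC was 0.33 (SE 0.102, adjusted p = 0.0202). This call was lost in 3 of 8 fits that left out 1 library each: the P19 control (adjusted p = 0.0818) and the P17 or P18 knockdown library (0.0744 and 0.0626). Lamb1 was at 310 ± 29.6 and 284 ± 12.1 CPM with overlapping groups (log2FC -0.13, SE 0.0798, adjusted p = 0.261), and without P19 its log2FC was -0.18 (adjusted p = 0.0182). Lamc1, the gamma chain of most laminins, was at 246, 232, 225 and 220 CPM in controls and at 185, 207, 204 and 184 CPM with knockdown. Its groups did not overlap, and its log2FC was -0.24 (SE 0.0619, adjusted p = 0.00645).

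Nid1 was at 85.6 ± 7.05 and 90.3 ± 7.05 CPM (log2FC 0.08, SE 0.0755, adjusted p = 0.485). Nid2, at 0.672, 0.650, 2.19 and 2.17 CPM in controls and 1.64, 2.34, 3.32 and 3.18 CPM with knockdown, was higher in the knockdown library of each batch. Its group ranges overlapped, and it was called with the batch as a replicate block (log2FC 0.94, adjusted p = 0.00656) but not without it (0.86, SE 0.401, adjusted p = 0.123), and without batch P19 its log2FC was 1.04 (adjusted p = 0.0383). Part of Nid2 (8.45% of its exon length) overlaps exons of Rtraf on the other strand, and without stated strandedness reads from that stretch cannot be told apart. The same holds for 3.86% of Lama2, 2.06% of Nid1 and 1.88% of Hmcn1. Hspg2 was at 590 ± 31.6 and 671 ± 85.7 CPM and did not pass (log2FC 0.19, SE 0.102, adjusted p = 0.191).

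Hmcn1 was at 13.7, 18.2, 20.6 and 21.8 CPM in controls and at 58.5, 76.9, 69.5 and 35.3 CPM with knockdown. The lowest knockdown library, from P19, was still above the highest control, and the log2FC was 1.69 (SE 0.256, adjusted p = 0.000102). The batch log2 ratios ran from 0.69 in P19 to 2.09. With the replicate block 5 of 10 members were called (40.6% of all genes), and without batch P19 7 were called, 4 higher and 3 lower (40.0% of all genes in that fit).

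**Figure D2:**
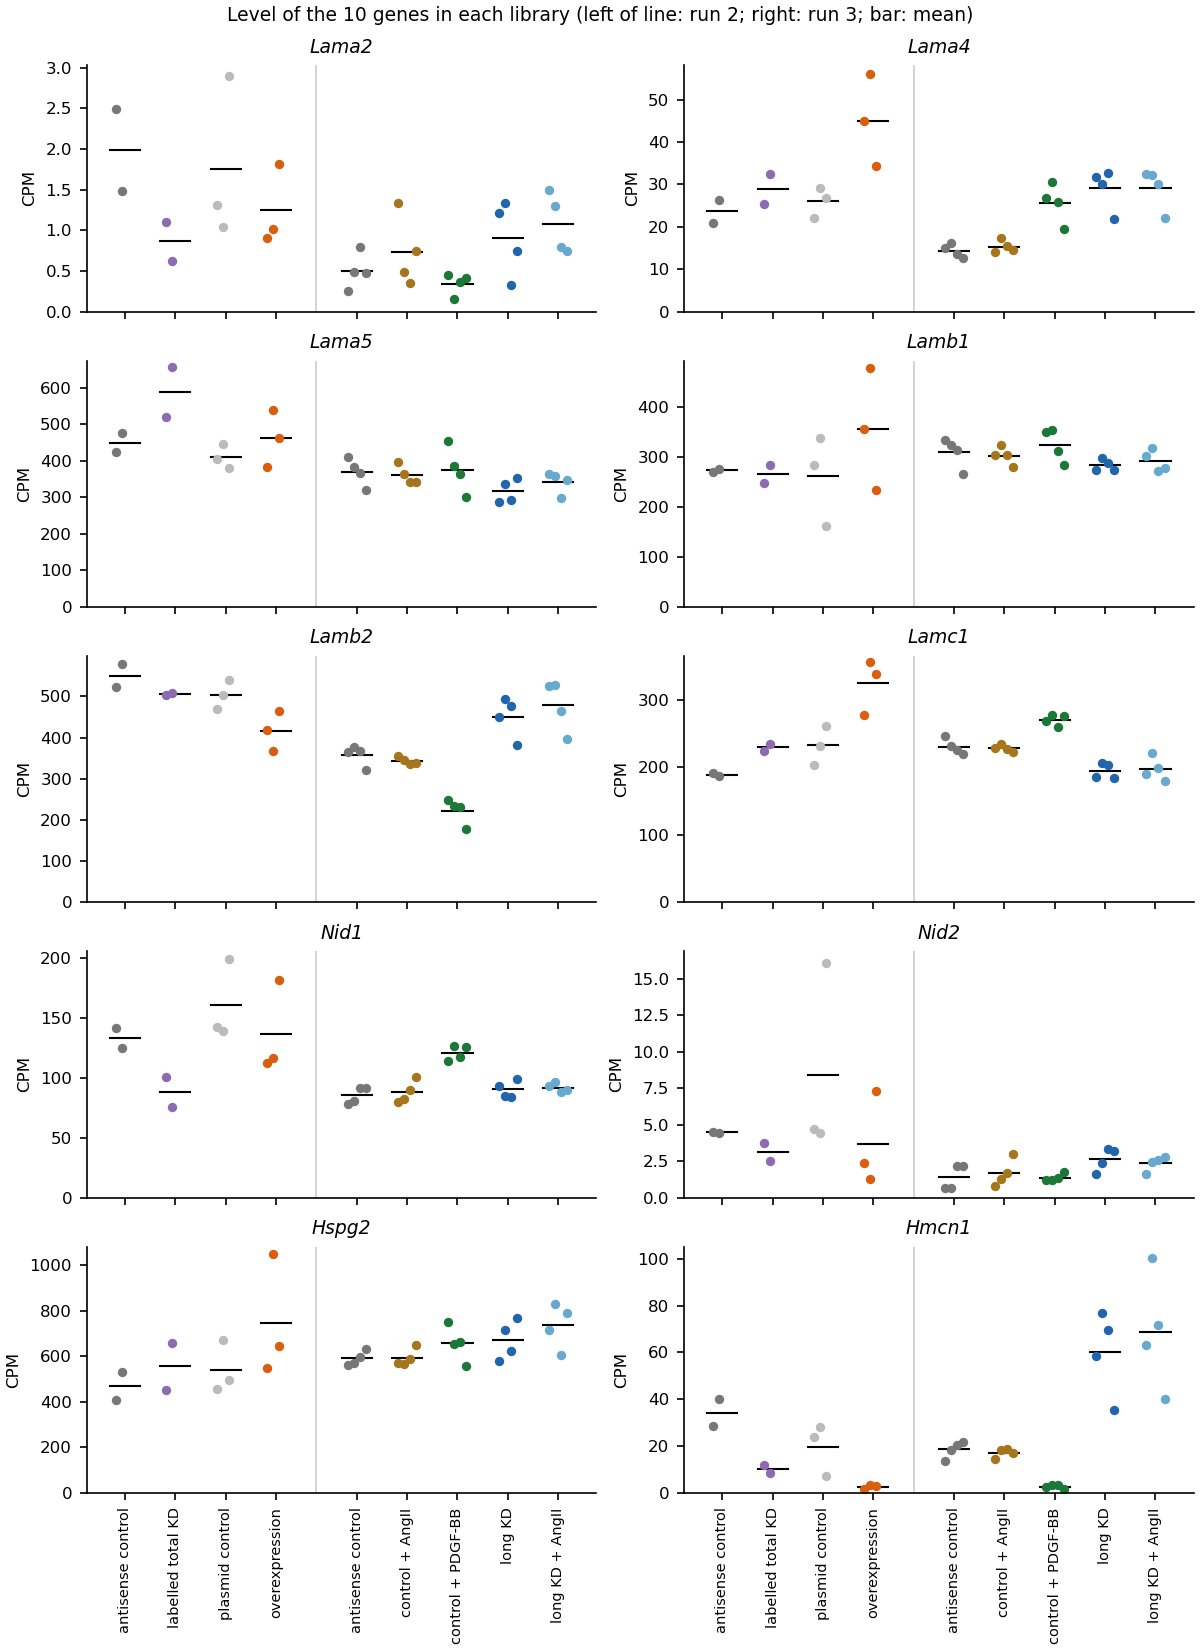
CPM of each of the 10 genes in each of the 30 libraries, by group, with run 2 left and run 3 right of the grey line; each axis starts at 0, KD is knockdown, AngII is angiotensin II, points of a group are in replicate order and black bars are group means. Hmcn1 spans the widest range, from means of 2.72 CPM with overexpression and 2.73 CPM with PDGF-BB to 68.8 CPM with long knockdown and angiotensin II, while group means of Lamb1 in run 3 lie between 284 and 325 CPM.

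Under angiotensin II the long knockdown was compared with its own angiotensin II-treated control. Lama4, Lamb2, Hspg2 and Hmcn1 were called higher and Lamc1 lower, 5 of 10 members, where 26.7% of all genes tested were called (41.3% with the replicate block, and again 5 members). Hmcn1 was at 14.7, 18.1, 18.6 and 17.3 CPM in controls and at 63.2, 100.3, 71.5 and 40.0 CPM with knockdown, with no overlap (log2FC 2.00, SE 0.260, adjusted p = 2.19e-05). In the same libraries Lama4 was at 14.0, 17.4, 15.5 and 14.6 CPM against 32.5, 32.2, 30.1 and 22.2 CPM (log2FC 0.93, SE 0.149, adjusted p = 0.000117). In both genes the P19 knockdown library was the lowest of its group and above every control.

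Lamb2 was at 336 to 356 CPM in these controls and 397 to 528 CPM with knockdown (log2FC 0.48, SE 0.102, adjusted p = 0.00169). Lamc1 was at 223 to 235 CPM and 180 to 222 CPM (log2FC -0.21, SE 0.0620, adjusted p = 0.0178), a call lost without the P16 knockdown library (adjusted p = 0.0576), with only the groups compared in the fit (0.0544) or with no filter (0.0620). Neither pair of ranges overlapped. Hspg2 was at 593 ± 37.6 and 735 ± 98.7 CPM with overlapping ranges (log2FC 0.31, SE 0.102, adjusted p = 0.0291), and its call was lost with a transcript length correction (adjusted p = 0.172, or 0.192 with the block) and in 5 of 8 fits that left out 1 library, the controls of P16, P17 and P18 and the knockdown libraries of P17 and P19 (adjusted p from 0.0601 to 0.116). Lama5, Lamb1, Nid1, Nid2 and Lama2 did not pass, with log2FC values of -0.07, -0.05, 0.06, 0.49 and 0.58.

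For angiotensin II by itself no difference in the 10 genes was past the threshold. No member was called in control cells or in knockdown cells, where 0% of all genes tested were called with or without the replicate block, and no member had an unadjusted p under 0.05 in edgeR's test in either. DESeq2 called 0 of 10 as well, and 1 of all genes in control cells and 0 in knockdown cells. Of all genes, 156 in control cells and 174 in knockdown cells had an unadjusted p under 0.05. Log2FCs were between -0.11 and 0.53 in control cells and between -0.15 and 0.25 in knockdown cells, and Lama2, the scarcest gene, gave the highest of both. For Hmcn1 the 95% interval was -0.66 to 0.44 in control cells and for Lamb2 -0.27 to 0.16. The difference between the angiotensin II responses of both arms also called no member (0% of all genes), with interaction terms from -0.37 to 0.31.

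PDGF-BB, a growth factor for smooth muscle, was compared with no treatment in antisense control cells, and these 4 untreated libraries are the same controls that served the untreated knockdown comparison. Hmcn1 fell to 14.7% of control and Lamb2 to 62.2%, while Lama4, Nid1 and Lamc1 rose. These were 5 of 10 members, 3 higher and 2 lower, where 43.6% of all genes tested were called (54.5% with the replicate block, again 5 members). The median log2FC of the members was 0.05 and that of all genes -0.02, and the called members went both ways.

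With PDGF-BB Hmcn1 was at 2.64, 3.29, 3.21 and 1.78 CPM in batches P16 to P19, against 13.7 to 21.8 CPM in the untreated controls. The groups did not overlap, and the log2FC was -2.76 (SE 0.307, adjusted p = 1.28e-06). Lamb2 was at 249, 233, 231 and 178 CPM with PDGF-BB and 321 to 378 CPM without (log2FC -0.68, SE 0.102, adjusted p = 2.03e-05). Lamb1, the alternative beta chain, was at 310 ± 29.6 CPM without and 325 ± 33.8 CPM with PDGF-BB (log2FC 0.07, 95% interval -0.10 to 0.24, adjusted p = 0.495).

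Lama4 was at 26.9, 30.7, 25.9 and 19.4 CPM with PDGF-BB, above all 4 controls of 12.6 to 16.2 CPM (log2FC 0.84, SE 0.148, adjusted p = 0.000119). Nid1, which links laminin to type IV collagen, was at 114, 127, 118 and 126 CPM against 78.4 to 91.8 CPM (log2FC 0.50, SE 0.0755, adjusted p = 2.19e-05). Lamc1, the chain to which nidogen binds, was at 261 to 277 CPM against 220 to 246 CPM (log2FC 0.23, SE 0.0618, adjusted p = 0.00505). No range overlapped its control, and these 5 calls held in all 17 alternatives run for each. Lama5, Hspg2, Nid2 and Lama2 did not pass, with log2FC values of 0.02, 0.15, -0.07 and -0.53. The sign of Lama5 and of Nid2 changed between alternatives, and without batch P19 Hspg2 passed at a log2FC of 0.26 (adjusted p = 0.0328).

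**Figure D3:**
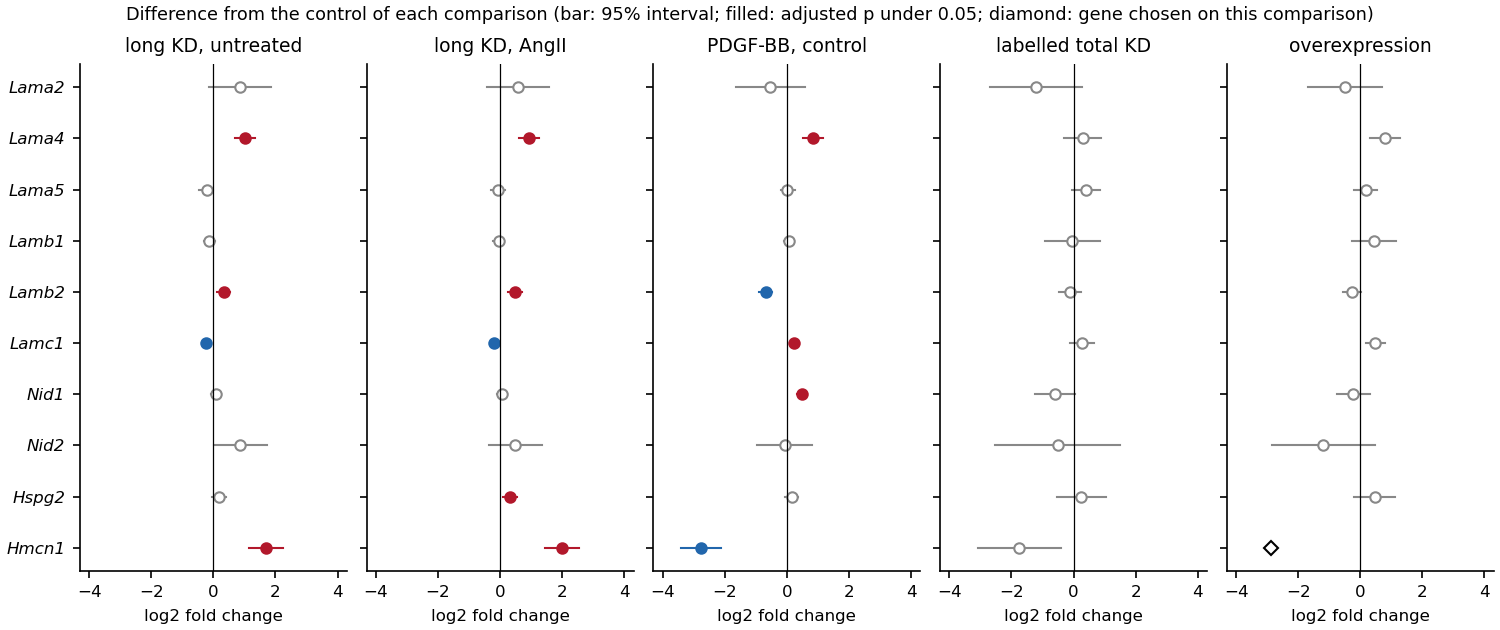
Log2FC of each of the 10 genes in 5 comparisons, with 95% intervals from edgeR's fit as bars; filled points are past an adjusted p of 0.05 (red higher, blue lower), open points are not, KD is knockdown, AngII is angiotensin II, and the diamond without a bar is Hmcn1 in overexpression, on which it was chosen. Hmcn1 and Lamb2 lie right of 0 in both long knockdown comparisons (1.69 and 0.33 untreated) and left of it with PDGF-BB (-2.76 and -0.68), whereas Lama4 lies right of 0 in all 5.

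**Figure D4:**
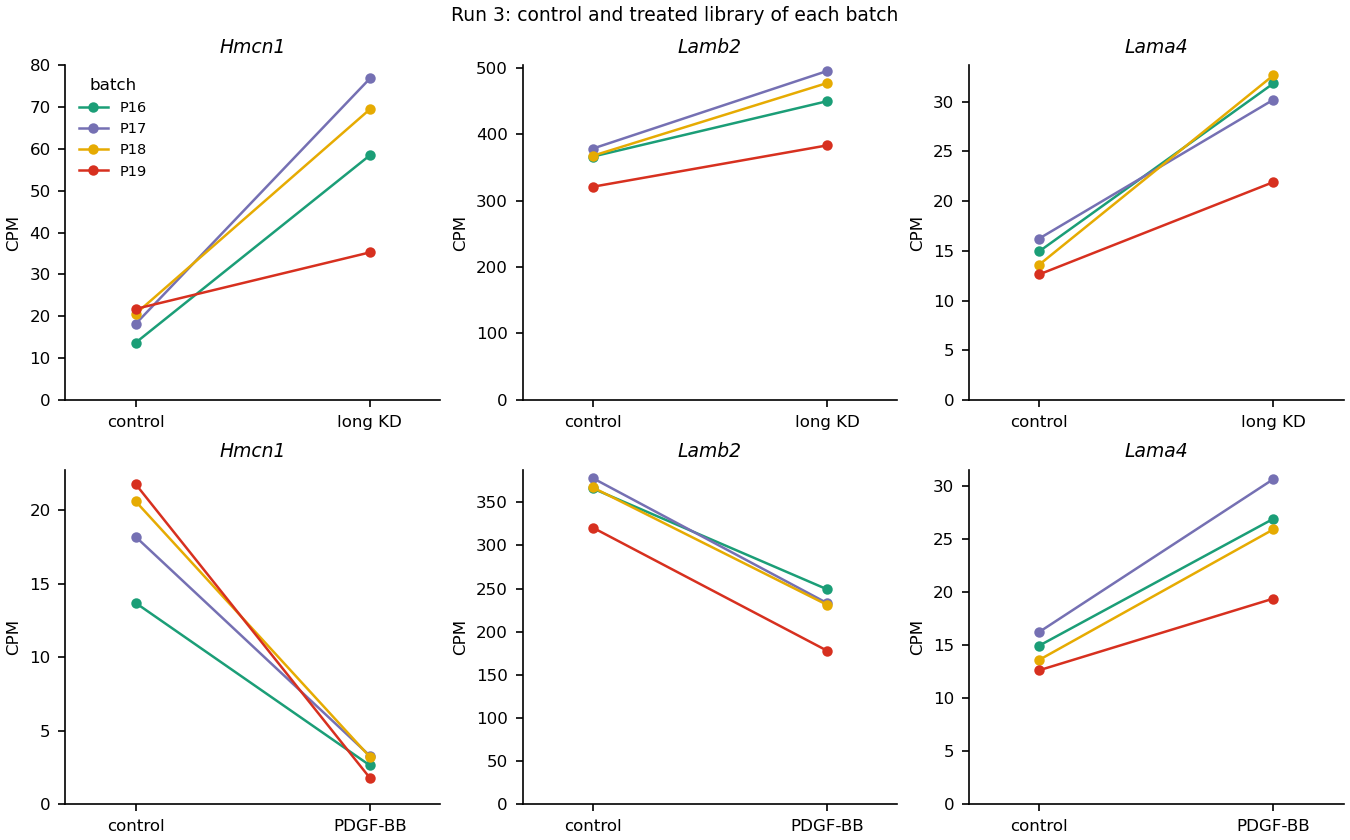
CPM of Hmcn1, Lamb2 and Lama4 in the untreated control and the long knockdown library (top row, KD is knockdown) or the PDGF-BB library (bottom row) of each batch of run 3, joined by a line per batch, with axes from 0. All 4 lines rise or all 4 fall in each panel, and the P19 line is the flattest for Hmcn1 with long knockdown, from 21.8 to 35.3 CPM.

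In libraries labelled as knockdown of total CASC15 no member was called, where 2.07% of all genes tested were called. Only Hmcn1 had an unadjusted p under 0.05 in edgeR's test. It was at 28.5 and 40.1 CPM in controls and at 11.98 and 8.46 CPM in the labelled libraries, lower in both batches (log2FC -1.75, SE 0.551, adjusted p = 0.180, 2 against 2 libraries). It was called by DESeq2 (adjusted p = 0.0295), with only the 4 libraries in the fit (0.00733) and without a filter on low counts (5.9e-09). Its sign was opposite to that in both long knockdown comparisons of run 3, and the difference between runs was not tested.

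With batch as a replicate block 14.4% of all genes and 2 members were called. Nid1 was lower, at 101 and 75.8 CPM against 142 and 125 CPM (log2FC -0.60, adjusted p = 0.00460 with the block and 0.398 without). Lama5 was higher, at 521 and 657 CPM against 425 and 476 CPM (0.38, adjusted p = 0.0409 and 0.426). Both pairs of groups were apart, but leaving out either control or the P17 labelled library left 1 member called in the blocked fit, lower in each case (beside at most 9.87% of all genes), and leaving out the P18 labelled library left none (3.20%). Lama4, Lamb1, Lamb2, Lamc1, Hspg2, Nid2 and Lama2 were not called in either fit, with log2FC values of 0.29, -0.04, -0.12, 0.28, 0.25, -0.51 and -1.20, and the signs of Lamb1 and Hspg2 changed between alternatives.

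Cells with the total CASC15 plasmid were set against the 3 control plasmid libraries. Hmcn1, chosen on this contrast, was at 23.8, 28.2 and 7.43 CPM in the controls of P17, P18 and P19 and at 1.70, 3.35 and 3.12 CPM with overexpression, with a log2FC of -2.87 as a description. Its lowest control, from P19, stood well under the others, and without P19 the value was -3.38. Of the 9 other members none was called without a replicate block, where 1.65% of all genes were called. Lama4, Lamc1 and Lamb2 had an unadjusted p under 0.05, and DESeq2 called 2 of the 9 and 5.26% of all genes. With the block 6 of the 9 were called, where 17.7% of all genes were. Since the same-numbered libraries share a batch in the labels, both counts are given.

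These 6 were Lama4, Lamb1, Lamc1 and Hspg2, which were higher, and Lamb2 and Nid2, which were lower. Lama4 was at 22.2, 29.1 and 26.8 CPM in controls and 44.9, 56.0 and 34.4 CPM with overexpression, with no overlap (log2FC 0.79, adjusted p = 0.0909 without and 0.00129 with the block, and 0.98 and 0.0293 without batch P19 and without the block). Lamc1 was at 204, 232 and 262 CPM against 279, 357 and 339 CPM, also apart (0.48, adjusted p = 0.106 and 0.00308). Lamb2 was at 470, 503 and 541 CPM against 418, 368 and 466 CPM, lower in every batch (-0.27, adjusted p = 0.311 and 0.0421).

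Lamb1, Hspg2 and Nid2 had overlapping group ranges, and each moved the same way in all 3 batches. Lamb1 was at 285, 339 and 163 CPM in controls and 356, 478 and 234 CPM with overexpression, and the controls of P17 and P18 lay above the P19 library with overexpression (0.44, adjusted p = 0.524 without and 0.00446 with the block). Hspg2 was at 456, 672 and 497 CPM against 550, 1049 and 643 CPM (0.46, adjusted p = 0.454 and 0.0128). Nid2 was at 4.73, 4.40 and 16.1 CPM against 2.40, 1.26 and 7.33 CPM (-1.19, adjusted p = 0.449 and 0.00199). Without the block its log2FC was -1.31 without batch P19 (adjusted p = 0.0667), -0.31 without the P19 control alone and -2.19 without the P19 overexpression library alone. Leaving out any 1 of the 6 libraries in the blocked fit left 4 or 5 of the 9 called, beside 8.38% to 17.3% of all genes. Lama5, Nid1 and Lama2 were not called in either fit (0.17, -0.23 and -0.48).

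Hmcn1 had the widest span of group means among the 10 genes. CPM were scaled within each run, so an order across runs is a description. Its mean was lowest at 2.72 CPM with overexpression and 2.73 CPM with PDGF-BB, closer than their spread (SD 0.895 and 0.696 CPM). Next came 10.2 CPM in the libraries labelled total knockdown, 17.2 and 18.6 CPM in the controls of run 3 with and without angiotensin II, 19.8 CPM in plasmid controls and 34.3 CPM in the antisense controls of run 2. It was highest with long knockdown, at 60.1 ± 18.2 CPM untreated and 68.8 ± 24.9 CPM with angiotensin II (SD, n = 4 each). The highest group mean was 25.3 times the lowest for Hmcn1, against 6.16 times for Nid2, 5.77 times for Lama2, 3.14 times for Lama4, 2.47 times for Lamb2 and 1.36 times for Lamb1. The lowest mean of Hmcn1 is from the contrast it was chosen on, and without the overexpression group its ratio was 25.2. Without batch P19 the ratio of Nid2 was 3.90, below the 6.14 of Lama2, and that of Hmcn1 was 31.1; both alternatives were chosen after seeing the data.

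Among the genes whose pattern over the 30 libraries was most like that of Hmcn1 were Fat4, a giant protocadherin, and Sema5a, a transmembrane semaphorin. Likeness was the root mean square difference of log2 CPM after each gene was centred in its run. It was 0.491 and 0.543, against a median of 1.63 over 12464 genes, and because Hmcn1 was chosen for its pattern these values are descriptive. Fat4 was at 13.4 ± 2.78 CPM in untreated controls of run 3, 35.6 ± 7.90 CPM with long knockdown and 1.68 ± 0.494 CPM with PDGF-BB. Sema5a was at 16.1 ± 2.94, 66.1 ± 21.3 and 3.41 ± 0.578 CPM in the same groups.

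The bases before the start of 4 members are shown because 2 of them, Hmcn1 and Lamb2, were called higher with long knockdown and lower with PDGF-BB, against shared untreated controls, while Nid1 was called higher with PDGF-BB and Lamb1 was called in neither. Each stretch is the 120 bases before the outermost start annotated in GENCODE M21, on the strand of the gene 5′ to 3′, from RefSeq promoter entries of build GRCm38.p6, which held 7 of the 10 members. That start lies at the nearest RefSeq start for Hmcn1, and 126, 59 and 51 bases before it for Lamb2, Lamb1 and Nid1, so the windows are not at the same distance from transcription. The build behind the count table is not settled by the sources used here. Capitals mark a GC box (GGGCGG) or a CCAAT box (CCAAT) on either strand.
Hmcn1 (minus strand, chr1:150993436-150993555): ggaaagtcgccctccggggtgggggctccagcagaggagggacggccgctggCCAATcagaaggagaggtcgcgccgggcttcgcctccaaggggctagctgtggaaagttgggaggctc
Lamb2 (plus strand, chr9:108479616-108479735): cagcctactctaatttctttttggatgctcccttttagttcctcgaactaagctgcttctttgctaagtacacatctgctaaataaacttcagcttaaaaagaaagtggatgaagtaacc
Lamb1 (plus strand, chr12:31265114-31265233): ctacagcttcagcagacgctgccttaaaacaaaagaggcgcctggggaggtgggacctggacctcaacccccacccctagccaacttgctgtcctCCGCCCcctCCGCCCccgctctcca
Nid1 (plus strand, chr13:13437431-13437550): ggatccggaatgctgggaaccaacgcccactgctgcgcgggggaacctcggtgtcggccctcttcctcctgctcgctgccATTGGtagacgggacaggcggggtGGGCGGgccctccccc

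The stretch of Hmcn1 was 68.3% G and C and held 1 CCAAT box and no GC box, and that of Lamb2 was 37.5% G and C and held neither. Lamb1 held 2 GC boxes, and Nid1 held 1 of each motif. Over all 32851 promoter entries the 120 bases before the RefSeq start held a GC box in 26.5%, a CCAAT box in 21.3%, a TATA box (TATAAA, either strand) in 6.34% and a CArG box, the motif of serum response factor in smooth muscle genes, in 0.749%. None of the 4 stretches held a TATA or a CArG box. These are matches of letters in 1 short window and not sites.

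The other basement membrane genes were taken from a list of 30, of which 22 were tested in run 3. With long knockdown in untreated cells 3 rose and 7 fell (10 of 22, beside 25.0% of all genes), with a median log2FC of -0.36. Without batch P19 4 rose and 10 fell, beside 40.0% of all genes. The 3 that rose were type IV collagen chains. Col4a2 went from 62.0 to 92.3 CPM (log2FC 0.57, SE 0.0723, adjusted p = 7.89e-06), Col4a6 from 3.35 to 14.3 CPM (2.07, SE 0.587, adjusted p = 0.0154) and Col4a5 from 128 to 188 CPM (0.55, adjusted p = 1.13e-05). Col4a1, the usual partner of Col4a2, was at 186 and 164 CPM and was not called (adjusted p = 0.118). The call of Col4a6 was lost without the P16 control (adjusted p = 0.0515).

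Among those that fell were Npnt, Smoc1, Ntn4, Sparc, Tinagl1 and Fbln2. Npnt, which encodes nephronectin, a matrix ligand of integrins, was at 105, 106, 119 and 138 CPM in controls and at 26.6, 32.6, 33.9 and 91.0 CPM with knockdown (log2FC -1.35, SE 0.371, adjusted p = 0.0133). Its P19 knockdown library stood apart, below every control and well above the other 3, and without batch P19 the log2FC was -1.84 (adjusted p = 1.58e-13). Under angiotensin II 4 of 22 rose and 7 fell (beside 26.7% of all genes), and Npnt again fell to 40.1% of its control (log2FC -1.32, adjusted p = 0.0150), a call lost without the P16, P17 or P18 knockdown library (adjusted p up to 0.0528). Without the P18 knockdown library these counts were 2 and 5, beside 20.7% of all genes, and without batch P19 4 and 10, beside 39.9%.

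With PDGF-BB 4 of the 22 rose and 6 fell (beside 43.6% of all genes), with a median log2FC of -0.07. Without batch P19 6 rose and 9 fell, beside 48.9% of all genes. Col15a1, a collagen of the outer face of basement membranes, went from 2.44, 2.82, 1.90 and 0.440 CPM to 23.4, 20.6, 21.2 and 6.36 CPM (log2FC 3.27, SE 0.462, adjusted p = 1.62e-05). Col18a1, the precursor of endostatin, rose from 14.3 to 25.0 CPM (0.81, adjusted p = 0.00616). Smoc1, a calcium-binding matrix protein related to Sparc, fell from 68.3 to 10.3 CPM (-2.73, SE 0.391, adjusted p = 3.02e-05) and Fras1, a protein of embryonic epithelial basement membranes, from 12.9 to 4.12 CPM (-1.64, adjusted p = 0.00210). The chains Col4a3, Col4a4 and Col4a5 fell, by 0.90, 0.52 and 0.46 on the log2 scale. Other type IV chains did not all go this way. Col4a6 was at 1.09 to 3.24 CPM in controls and 2.13 to 3.69 CPM with PDGF-BB, with P19 apart at 6.47 and 9.06 CPM. Col4a2 was at 59.1 to 64.7 and 52.7 to 60.6 CPM. PDGF-BB also lowered the summed fibroblast list given above, where 1 of 6 tested markers was called higher and 4 lower. Of 11 smooth muscle markers tested, 2 were called higher and 2 lower (both lists beside 43.6% of all genes). The part of both lists in these values was not tested.

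Among the libraries labelled total knockdown only Hmcn2, the paralog of Hmcn1, was called of 22 tested, at 1.65 and 1.53 CPM in controls and 6.92 and 10.2 CPM in the labelled libraries (log2FC 2.42, SE 0.322, adjusted p = 0.0120). The call was lost without either control or the P18 labelled library (adjusted p up to 0.118). With the replicate block 10 of 22 were called, 6 higher and 4 lower (beside 14.4% of all genes). In overexpression none of 22 was called without the block (2 at an unadjusted p under 0.05 in edgeR's test, and 2.07% and 1.65% of all genes were called in these comparisons). With it 7 were called, 1 higher and 6 lower (beside 17.7% of all genes).

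Receptors of laminins and other basement membrane proteins were called lower more often than higher with long knockdown. Of 17 tested of a list of 18, 9 fell and none rose in untreated cells, where 25.0% of all genes were called, 1855 higher and 1928 lower. Under angiotensin II 7 fell and 1 rose, where 26.7% of all genes were called, 2021 higher and 2012 lower. Without batch P19 9 fell and 2 rose in untreated cells (beside 40.0% of all genes), and 9 fell and 1 rose under angiotensin II (beside 39.9%), where without the P18 knockdown library 5 fell and none rose (beside 20.7%). Itgb4, the beta 4 integrin that pairs with Itga6 on epithelial laminins, was at 82.3, 77.0, 71.2 and 42.3 CPM in controls and at 21.1, 21.03, 21.5 and 20.5 CPM with knockdown (log2FC -1.69, SE 0.214, adjusted p = 1.56e-05). Bcam, the Lutheran glycoprotein that binds the laminin alpha 5 chain, fell from 28.8 to 13.2 CPM (-1.13, SE 0.225, adjusted p = 0.00111). Of the more abundant receptors, Itgb1 fell from 1348 to 1012 CPM (-0.41, adjusted p = 0.00367), Itga3 from 238 to 176 CPM (-0.44, adjusted p = 0.00119) and Dag1, which encodes dystroglycan, from 337 to 279 CPM (-0.27, adjusted p = 0.000707). Itga6, Sdc1, Gpc1 and Ddr1 were the other 4.

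With PDGF-BB 3 of 17 receptors rose and 5 fell (beside 43.6% of all genes), and with the replicate block 7 rose and 5 fell (beside 54.5%). Without batch P19 8 rose and 5 fell (beside 48.9%), and without the P19 library with PDGF-BB alone 2 rose and 3 fell (beside 36.5%). Sdc2, a heparan sulfate proteoglycan of the cell surface, was at 176, 177, 173 and 206 CPM without and 81.7, 89.7, 82.1 and 93.6 CPM with PDGF-BB (log2FC -1.08, SE 0.0910, adjusted p = 1.35e-08). It was also the 1 receptor called in overexpression (beside 1.65% of all genes), at 187, 189 and 208 CPM against 120, 135 and 133 CPM (-0.59, SE 0.100, adjusted p = 0.0204, lost without the P17 or P18 library of either group and with only the groups compared, adjusted p up to 0.0847). Itga6 and Gpc1, which fell with long knockdown, rose with PDGF-BB from 20.1 to 29.6 and from 20.9 to 31.7 CPM (0.56 and 0.60, adjusted p = 0.000938 and 0.000479), against the same untreated controls. No receptor was called in the libraries labelled total knockdown (beside 2.07% of all genes), where 2 of 17 had an unadjusted p under 0.05 in edgeR's test and 3 were called with the replicate block (beside 14.4%).

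The enzymes that build the laminin-binding glycan of dystroglycan were tested as a list of 13. With PDGF-BB 4 rose and 2 fell, a share near the 43.6% of all genes called, and without batch P19 2 rose and 2 fell (beside 48.9%). Gmppb, which makes the mannose donor, went from 8.09 to 13.5 CPM (log2FC 0.73, adjusted p = 0.000270) and Pomt1, which adds the first mannose, from 23.2 to 34.2 CPM (0.56, adjusted p = 0.000427). Rxylt1, a ribitol xylosyltransferase, fell from 64.0 to 45.6 CPM (-0.49, adjusted p = 2.82e-05) and Pomgnt2 from 7.84 to 5.20 CPM (-0.59, adjusted p = 0.00336). With long knockdown in untreated cells 1 of 13, B4gat1, a glucuronyltransferase of the same glycan, was lower, where 25.0% of all genes were called (-0.21, adjusted p = 0.0257). Its call was lost with no filter on low counts, with a length correction, and without the P16 or P18 knockdown library (adjusted p up to 0.0953), and without batch P19 1 of 13 rose and 3 fell (beside 40.0% of all genes). No test compared the lists with each other.

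**Figure D5:**
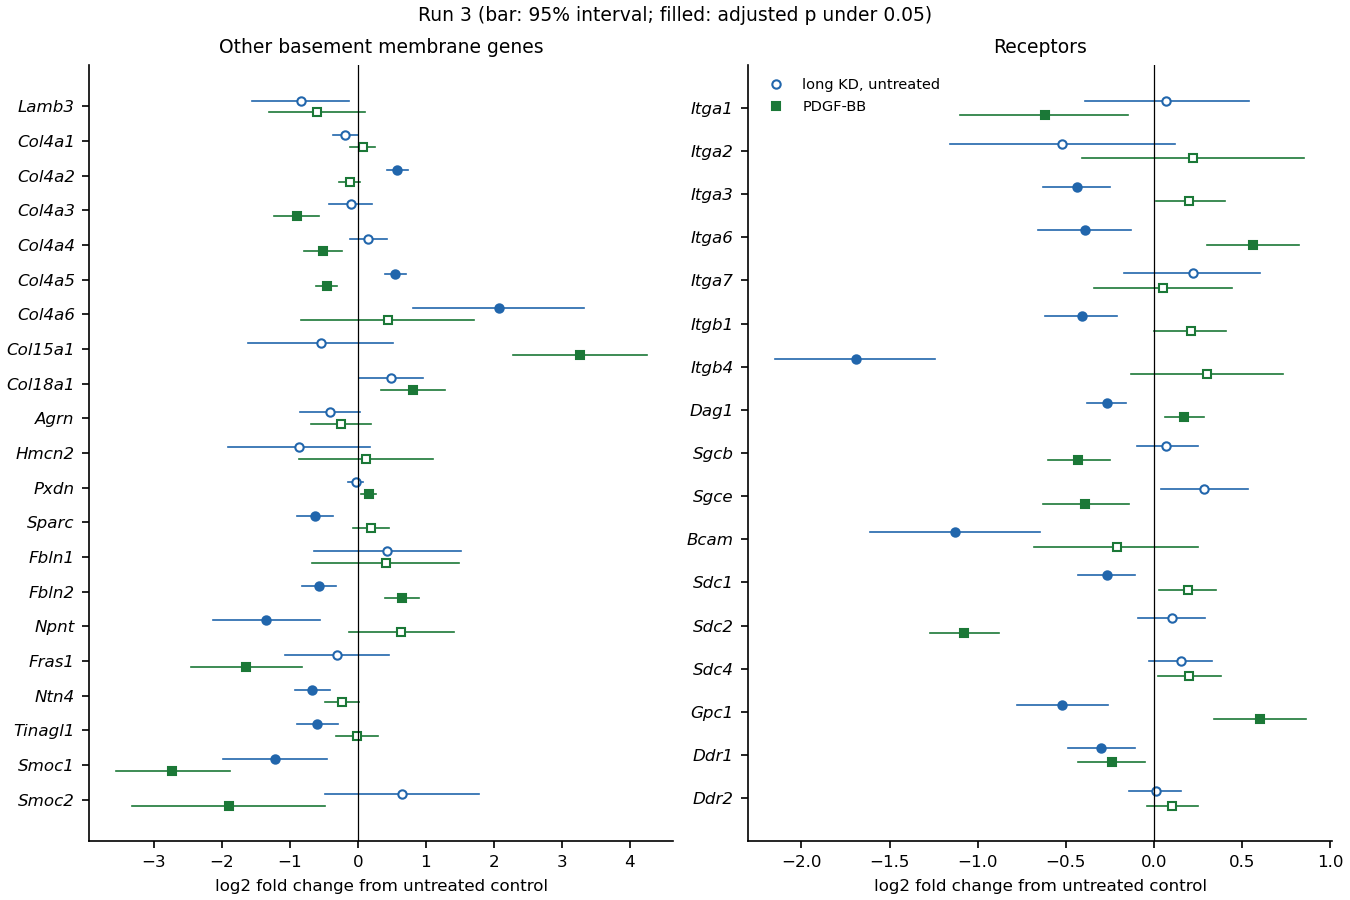
Log2FC of 21 other basement membrane genes and the 17 receptors tested, with long knockdown in untreated cells (blue circles) and with PDGF-BB (green squares), both against the same 4 untreated controls; bars are 95% intervals from edgeR's fit, filled symbols are past an adjusted p of 0.05 and KD is knockdown. Itgb4 (-1.69) and Npnt (-1.35) are far left with long knockdown, and Col15a1 (3.27) is far right with PDGF-BB.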

How the data were processed

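Expected counts per gene, deposited by the authors as 1 merged RSEM table per the file headers, were not scaled to depth. The submitters' processing notes name STAR 2.7.11b and RSEM 1.3.1 and the builds GRCm39 and mm10, with no role, and strandedness is not given in the sources used here. The 78334 identifiers were matched to gene symbols by Ensembl identifier without version, which named 51486 that held 98.7% of counts. GENCODE M21 (GRCm38) gave exon lengths.

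Counts were rounded and filtered with filterByExpr (minimum count 10, minimum total 15), scaled with TMM factors, and fitted by run, all groups together, with edgeR's quasi-likelihood test. Every adjusted p comes from this test with Benjamini-Hochberg adjustment over all genes tested, two-sided, unless DESeq2 is named, and a gene was called under 0.05. The members, the 3 further gene lists and the rule for named genes were chosen with earlier results of these data known. The rule named the members in every comparison, for each list and comparison at most 2 called genes with the largest rise and 2 with the largest fall at a mean of at least 1 CPM in the run, and the genes most like Hmcn1. Some items are not reported here. Other list genes that are named (Col4a1, Col4a3 to Col4a5, Itgb1, Itga3, Dag1 and those without values) were picked after their values were seen.

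Per the labels, same-numbered libraries share a batch. After group means were removed, their mean correlation across genes was 0.499 in the overexpression groups (other pairs -0.236), 0.253 in the groups labelled total knockdown (-0.253), and 0.184 to 0.333 in run 3 (-0.0998 to -0.0559). Fits with and without the batch as a replicate block were therefore both made. The alternatives were DESeq2, RLE factors, no filter, a mean of at least 1 CPM, only the groups compared, the block, a transcript length correction without and with the block, leaving out P19, and leaving out each library. R 4.3.3 ran edgeR 4.0.16 with limma 3.58.1, and DESeq2 1.42.0. The fits were also run on simulated counts with known changes. Those counts held no batch differences, so they cannot judge the choice between fits with and without the block. Each library held at least 15771490 counts, so counting error matters mainly for the scarce genes Lama2 and Nid2.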

Additional observations from a re-analysis of the deposited data

Results flagged for a closer look

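A library was picked out where, in a group of 4, its gap to the nearest of the others, divided by the whole range of the group, was above Dixon's critical value at 95%. Chance picks about 1 in 20 groups, and 11 of 170 were picked here, none for the level of one of the 10 members. In all 11 the library was that of batch P19.

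Among untreated controls Smoc1 was at 38.6 CPM (76.1 to 80 in the others) and Sdc2 at 206 CPM (173 to 177). With PDGF-BB Col15a1 was at 6.36 CPM (20.6 to 23.4), Gpc1 at 38.0 CPM (28.9 to 30.3) and Gmppb at 16.5 CPM (12 to 12.7).

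With long knockdown in untreated cells Npnt was at 91.0 CPM (26.6 to 33.9) and Bcam at 19.8 CPM (10.1 to 11.6). In the same library Lamb1 held 29.4% of beta chains (26.7% to 26.9% in the others) and Lamb2 67.2% (72.0% to 72.3%).

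With long knockdown and angiotensin II Npnt was at 90.4 CPM (31.4 to 34.7) and Lamb2 held 67.8% of beta chains (72.3% to 73.2%).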

How the results depend on the processing

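Each count of members called is followed by the share of all genes called in the same fit. With long knockdown in untreated cells the count was 4 (25.0%), and it was 7 with a transcript length correction and the replicate block (40.7%), 7 without batch P19 (40.0%), and 3 to 4 when each library was left out (18.8% to 31.7%). With angiotensin II it was 5 (26.7%), and 4 to 5 when each library was left out (19.8% to 31.9%). With PDGF-BB it was 5 (43.6%), 6 without batch P19 (48.9%), and 5 each time a single library was left out (36.5% to 43.1%). It was 0 under every alternative for the effects of angiotensin II and their difference. For the libraries labelled total knockdown the count was 0 (2.07%), with 1 for DESeq2 (4.68%), 2 with no filter (4.44%), 2 with the replicate block (14.4%), 3 with length correction and block (15.3%), 1 with only the groups compared (7.34%), and 0 when each library was left out (0.0247% to 1.16%). In overexpression 0 of 9 were called (1.65%), with 2 for DESeq2 (5.26%), 3 with no filter (4.56%), 6 with the replicate block (17.7%), 1 with length correction (1.85%), 6 with length correction and block (17.7%), 1 without P19 (5.57%), and 0 to 1 when each library was left out (0.561% to 5.69%, with 1 without the P19 library of either group). An alternative chosen after seeing the data, leaving out each library within the blocked fit, gave 0 to 1 for total knockdown (3.20% to 9.87%) and 4 to 5 for overexpression (8.38% to 17.3%). Nid2 with long knockdown and the calls above were the only members that the block moved past the threshold; it changed no other call. Signs were not followed for the effects of angiotensin II and their difference. In the other comparisons they changed for 5 values, none past the threshold. With PDGF-BB Lama5 was at 0 with a mean of at least 1 CPM, 0 with only the groups compared, and -0.10 to 0.09 when each library was left out. There Nid2 was at 0.04 with the block, 0.09 without P19 and -0.33 to 0.24 over left-out libraries. For the total knockdown label Lamb1 was at 0.04 with length correction and 0.04 with the block added, and at -0.15 to 0.04 over left-out libraries, and Hspg2 at -0.05 to 0.49. Lama2 in overexpression was at -0.87 to 0.08. The cause was not tested. Where leaving out a library left 1 in its group, that library was assumed to vary like the other groups. Counts limit Lama2 and Nid2 most.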
